A study of Mus musculus with 6 samples.

Results

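The cells described here were chosen by genes of mural cells, the contractile and supporting cells that wrap blood vessels, together with genes of a stromal signature. They came from the surface of the adult mouse cortex and from the inner side of the skull. A cell was taken when at least 2 of 4 marker genes (Ccl19, Colec11, Il34 and Prrx1) and at least 2 of 5 mural genes (Abcc9, Kcnj8, Higd1b, Rgs5 and Pdgfrb) each had at least 1 unique molecular identifier (UMI, the tag of 1 captured mRNA molecule). It had no UMI of Ptprc, Pecam1 or Slc22a6, which mark immune, endothelial and leptomeningeal cells. The rule held for 807 of 8804 cells that had at least 500 genes and at most 10% of UMIs on mitochondrial genes, which is 9.17% of them, from 17560 barcodes in all. They are called marker-positive mural cells below, because the label built on Ccl19 and Colec11 described only some of them. The name follows the rule and does not settle the type of each cell. At least 3 of 6 fibroblast genes, named below, had UMIs in 284 of them (35.2%). The 12 genes of the rule chose the cells, so their values are descriptions without a test, and all cells and gene lists were picked with earlier results of these data known.

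The study used scRNA-seq to ask which cells make up the interface between the brain surface and its coverings. It has 4 cortical surface-associated libraries, made from the top of the cortex with the adhering leptomeninges, and 2 bone-associated libraries, made from the dura and other tissue lifted off the inner skull. All mice were wild-type C57BL6 of either sex aged 8 to 16 weeks, with no treatment and no transgene, and they were not perfused. Each bone-associated library pooled 8 mice and each cortical surface library 6 to 10, so the library is the replicate and variation between mice is not seen. Viable DRAQ5-positive, propidium iodide-negative cells were sorted and run on the 10x Genomics Chromium 3' system. The dissociation enzymes are collagenase D with dispase II in the study's methods but papain in the labels, which also name another brain region, the V-SVZ. The tissue fields of the labels (brain, and dura or skull) match the study's account and were used for grouping.

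The numbers of marker-positive cells in cortical surface libraries 1 to 4 were 131, 177, 40 and 138, and those in bone-associated libraries 1 and 2 were 100 and 221. As a share of all cells of a library they made up 17.6%, 14.1%, 3.63% and 6.16% at the cortical surface, and 10.4% and 8.83% at the bone. The median depth of these cells was 7964, 7982, 4385 and 3990.5 UMIs in the cortical surface libraries and 12512.5 and 9940 UMIs in the bone-associated ones. Cortical surface libraries 3 and 4 stood apart. In them 16.3% and 12.4% of the UMIs of marker-positive cells came from hemoglobin genes, against less than 0.01% in every other library. In the same order as above, 14 immediate early and stress genes (Fos the most abundant) summed to 23902, 31268, 2434 and 3139 CPM (a gene's UMIs per 1000000 UMIs of these cells in that library) in the cortical surface libraries and to 24545 and 23197 in the bone-associated ones. The calls between preparations were therefore also made with each pair of cortical surface libraries. Of 35 barcodes shared between libraries, 2 belonged to these cells, and 4 of the 807 were among the cells most like simulated doublets.

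Pericytes and vascular smooth muscle cells, together called mural cells, share a lineage but differ in contractile genes, and both regulate vessel calibre and stability. Ccl19 encodes a chemokine that attracts cells carrying the receptor CCR7 and is best known from the fibroblastic stroma of lymphoid organs. Il34 encodes a ligand of CSF1R, the receptor on which microglia and many macrophages depend, Colec11 a secreted collectin that can start the lectin pathway of complement, and Prrx1 a homeobox transcription factor of mesenchymal cells. On GRCm38, as given by the GENCODE annotation, the minus strand holds Ccl19 at chr4:42754525-42756577, Colec11 at chr12:28594173-28623377, Il34 at chr8:110741829-110805924 and Prrx1 at chr1:163245119-163313710. The matrices list a second Ccl19 identifier, which had 0 UMIs, and near-identical copies of this gene make its level uncertain.

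Most marker-positive cells entered through Il34 and Prrx1. Prrx1 had a UMI in 786 of the 807 cells (97.4%) and Il34 in 769 (95.3%), whereas Ccl19 had one in 322 (39.9%) and Colec11 in 194 (24.0%). Cells with only Il34 and Prrx1 numbered 446 (55.3%), and 140 (17.3%) had all 4 marker genes. Of the mural genes, Pdgfrb was detected in 99.0% of the cells, Rgs5 in 94.2%, Higd1b in 70.9%, Kcnj8 in 65.8% and Abcc9 in 60.3%. Most of the cells the rule took thus had no UMI of either gene that gives the label its name.

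The level of Ccl19 in marker-positive cells was 577, 390, 344 and 301 CPM in cortical surface libraries 1 to 4, and 178 and 196 in the bone-associated libraries. All 4 cortical surface values were above both bone-associated values. Colec11 stood at 70.4, 76.3, 87.3 and 109 CPM at the cortical surface and at 54.7 and 63.8 at the bone, an order of groups that also did not overlap. Il34 stood at 391, 350, 504 and 579 CPM at the cortical surface against 157 and 208 at the bone. Prrx1, at 478, 323, 553 and 564 against 436 and 397, overlapped between the preparations. In the same cells Ccl19 was detected in 41.2%, 42.4%, 42.5% and 48.6% of cells at the cortical surface and in 25.0% and 38.0% at the bone, although the bone-associated cells were the deeper ones.

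**Figure D1:**
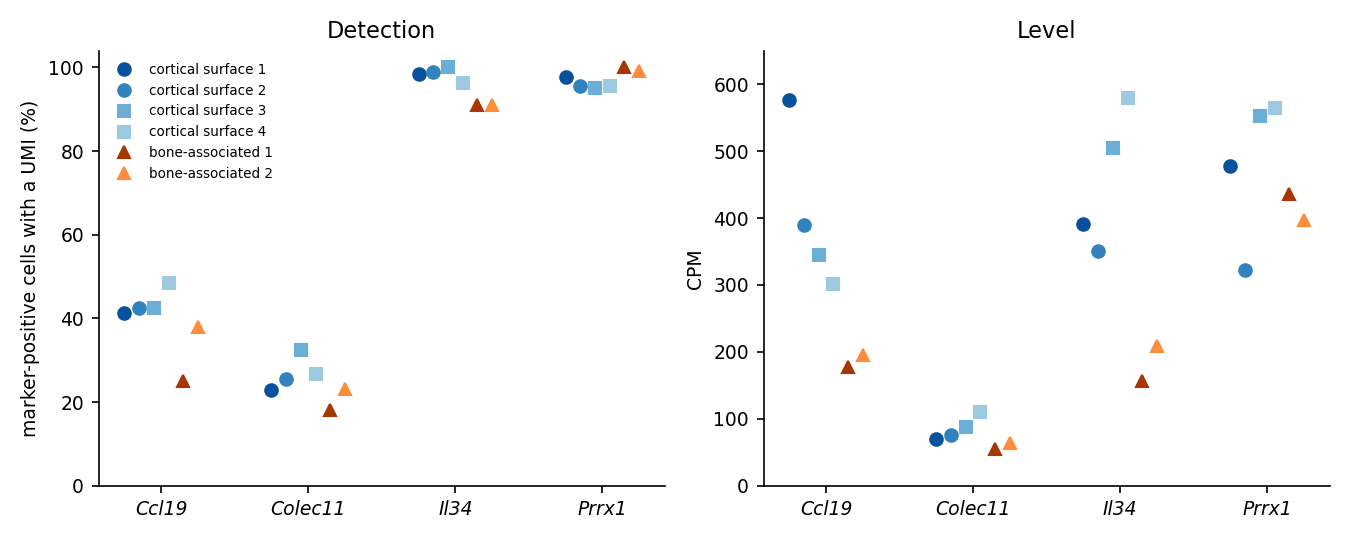
Detection (percent of marker-positive cells with at least 1 UMI, left) and level (CPM, right) of the 4 marker genes used by the rule, with 1 point for each of the 6 libraries and no error bars. Il34 and Prrx1 lie above 90% in every library while Ccl19 and Colec11 lie below 50%, and the levels of Ccl19, Colec11 and Il34 are higher in all 4 cortical surface libraries than in both bone-associated ones.

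The 2 less common marker genes were detected in few cells of most other classes. Ccl19 had a UMI in 4 of 493 smooth muscle cells (0.811%, median depth 11211 UMIs), in 37 of 4663 cells with a Ptprc UMI (0.793%, median depth 7101) and in 36 of 1136 cells with Pecam1 but no Ptprc (3.17%). The smooth muscle cells here had UMIs of at least 3 of Acta2, Myh11, Cnn1, Pln and Mustn1 and were outside the rule. Fibroblasts, defined by at least 3 of Dcn, Col1a2, Lum, Serpinf1, Islr and Pcolce and outside the rule, were the exception, with Ccl19 in 136 of 439 cells (31%). By definition they also had fewer than 2 mural genes, fewer than 2 of the 5 smooth muscle genes and no UMI of Ptprc or Pecam1. Their Ccl19 level was lower, at 61.5 CPM against 312 in marker-positive mural cells. Colec11 was found in 6 of these 439 fibroblasts (1.37%), in 19 of the 4663 immune cells (0.407%) and in 0 of 493 smooth muscle cells, which allows a share of cells with a UMI of up to 0.609% and does not limit the share that express the gene. Immune cells should lack Colec11 and Prrx1, and their shares of these genes are given as a background pooled over the 6 libraries. Free RNA was not estimated for any single library. Il34 and Prrx1 were widespread by comparison: Il34 had a UMI in 30.4% of smooth muscle cells and 53.3% of fibroblasts, and Prrx1 in 47.9% and 69.2%, against 1.59% and 2.14% of immune cells. These classes exclude cells that met the rule, which lowers their shares of all 4 genes.

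The receptor genes Ccr7 and Csf1r were detected in a larger share of immune cells than of marker-positive cells. The rule barred Ptprc, the gene that defines these immune cells, so this contrast is partly set by the definitions. Ccr7, the signalling receptor of CCL19, had a UMI in 750 of the 4663 immune cells (16.1%) and in 2 of the 807 marker-positive cells (0.248%). Csf1r, the receptor of IL-34, was detected in 2132 immune cells (45.7%) and in 30 marker-positive cells (3.72%). Ackr4, which scavenges CCL19, and Ptprz1, a second binding partner of IL-34, had UMIs in 2 and 6 marker-positive cells. Sdc1, which encodes syndecan-1, also reported to bind IL-34, was the exception with 248 cells (30.7%). The list of 18 genes of lymphoid organ stroma, of which 16 had a UMI, was uneven in marker-positive cells. It summed to 269, 429, 369 and 339 CPM at the cortical surface and to 1228 and 1595 at the bone, with Cxcl12 the most abundant. Tnfrsf1a was detected in 62.3% of the cells, Cxcl12 in 53.8%, Ltbr in 27.9%, Icam1 in 13.9% and Vcam1 in 13.3%. Over all 6 libraries Ccl21a had 1 UMI, Il7 had 3, Tnfsf11 had 4, Cxcl13 had 5, and Madcam1 and Bst1 had 0.

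Marker-positive cells were not uniform. UMIs of at least 2 of the 5 smooth muscle genes were found in 448 of them (55.5%), and UMIs of at least 3 of the 6 fibroblast genes in 284 (35.2%). Pdgfra, which marks meningeal fibroblasts, had a UMI in 41 (5.08%) and stood at 0, 11.0, 0 and 0 CPM in the cortical surface libraries and at 7.81 and 51.5 in the bone-associated ones. Summed over 18 contractile genes (Acta2 the most abundant), the level was 37716, 35024, 11870 and 8876 CPM in the cortical surface libraries and 41233 and 20733 in the bone-associated ones. The 15 fibroblast genes (Dcn the most abundant) summed to 607, 783, 514 and 657 CPM at the cortical surface against 4129 and 7504 at the bone. The 23 pericyte genes (Vtn the most abundant) summed to 7908, 7918, 8994 and 9785 against 4162 and 3726. The fibroblast and pericyte sums thus separated the preparations, and the contractile sum separated cortical surface libraries 3 and 4 from the other 4 libraries.

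**Figure D2:**
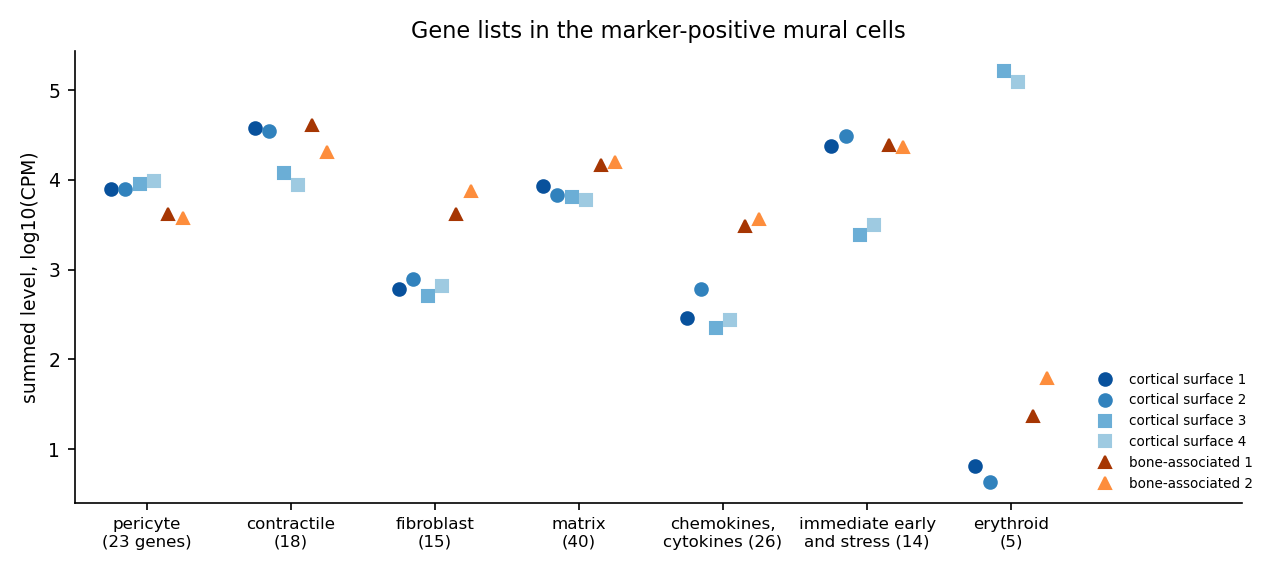
Summed level (log10 of CPM, so a log axis) of 7 gene lists in marker-positive mural cells, with 1 point for each library. The fibroblast, matrix and chemokine sums are higher in both bone-associated libraries than in all 4 cortical surface libraries, and the stress and erythroid sums set cortical surface libraries 3 and 4 apart.

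How many cells met the rule depended on the number of UMIs sampled from each. Among 1337 mural cells (at least 2 of the 5 mural genes and none of the 3 excluded ones), 122 had none of the 4 marker genes, 408 had 1, 490 had 2, 177 had 3 and 140 had all 4. When every cell was thinned to 1500 UMIs before the rule was applied, 910 cells still met the mural condition and 289 of them had none of the marker genes, 339 had 1, 188 had 2, 81 had 3 and 13 had all 4. Cells just inside the rule (2 marker genes) and just outside it (1 marker gene) had similar median depths, 8825.5 and 9761 UMIs, and the share with at least 2 smooth muscle genes was 59.0% in the former and 70.6% in the latter.

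Cells with both Ccl19 and Colec11 were then set beside cells with neither gene. This division was made after the values had been seen, so it is a description without a test. Both genes were detected in 155 cells (27, 40, 5 and 27 in cortical surface libraries 1 to 4, and 16 and 40 in bone-associated libraries 1 and 2), and 206 cells had 1 of the 2. Of the others, 171 had neither gene and fewer than 2 smooth muscle genes, and 275 had neither gene and at least 2 smooth muscle genes. Fibroblast genes were found in both groups. At the bone at least 3 of the 6 were detected in 6 of 10 and 20 of 35 cells with neither gene and few smooth muscle genes. The same held for 13 of 16 and 30 of 40 cells with both genes. Over all libraries it held for 37 of the 171 cells and for 91 of the 155. By level the order at the bone was the opposite. The 15 fibroblast genes summed to 19549 and 11970 CPM in cells with neither gene and few smooth muscle genes. They summed to 5929 and 9569 in the cells with both genes and to 16107 and 22035 in fibroblasts. In cortical surface library 2 the 11 leptomeningeal genes (Ptgds the most abundant) summed to 27192 CPM in cells with neither gene and few smooth muscle genes. They summed to 144 in the cells with both genes. The part of these other cell types in the differences below was not tested. The median depth of these groups was 8381 UMIs with both, 4706 with neither and few smooth muscle genes, and 11803 with neither and smooth muscle genes. None of the 155 cells was doublet-like, and they had the mural genes Kcnj8 in 98.7%, Pdgfrb in 98.1%, Rgs5 in 97.4%, and Abcc9 in 74.2% of cells. Vtn and Notch3, a pair of further pericyte genes outside the rule, were each found in 97.4% of them, and Pdgfra in 5 cells (3.23%).

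On the contractile scale the cells with both genes lay between the other groups in cortical surface libraries 1 and 2 and both bone-associated libraries, but not in cortical surface library 4. Their 18 contractile genes summed to 13964, 12413, 21093 and 11429 CPM at the cortical surface and to 28169 and 12492 at the bone. Cells with neither gene and few smooth muscle genes, which the division held low, had 6994, 5126, 7362 and 6321, and 3421 and 2827. Those with neither gene but with smooth muscle genes, which it held high, had 58829, 57913 and 9346 in cortical surface libraries 1, 2 and 4, and 52446 and 36635 at the bone, with a single cell in cortical surface library 3. Tagln, an actin-binding protein of smooth muscle, was not counted in the division, but 106 of the 155 cells with both genes had at least 2 of the smooth muscle genes that were, so the division itself favours a lower value in the cells held to fewer. It had 1885, 1720, 5902 and 1326 CPM in the cortical surface cells with both genes and 41.5, 75.1, 64.9 and 52.9 in those with neither and few smooth muscle genes. At the bone the corresponding values were 6524 and 2137 against 83.4 and 185.

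**Figure D3:**
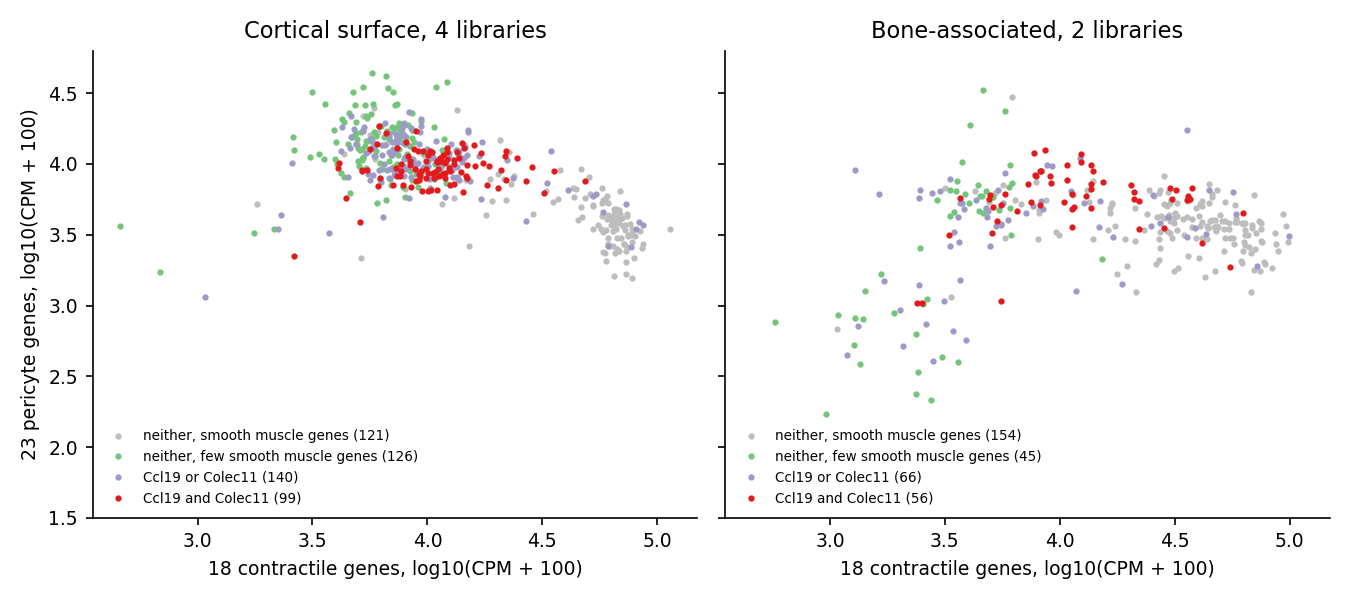
Each point is 1 marker-positive mural cell, plotted by the summed level of 18 contractile genes (horizontal axis) and 23 pericyte genes (vertical axis), both as log10 of CPM plus 100, in the 4 cortical surface libraries (left) and the 2 bone-associated libraries (right). Colours give the detection of Ccl19 and Colec11, and cells with neither gene are split by whether at least 2 smooth muscle genes were detected. Cells with both genes mostly lie between the pericyte-high and the contractile-high ends, and a group of bone-associated cells is low on both axes.

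Over 8945 genes with at least 50 UMIs, 92 (1.03%) were higher in the cells with both genes than in the cells with neither gene without overlap of the 6 libraries, and 69 (0.771%) were lower. Ordered by the smallest within-library difference, Slc11a1, Stbd1 and Angpt2 led these 92, while Col14a1 had a larger smallest difference but overlapped between libraries. Slc11a1, a divalent metal transporter best known from macrophages, had 198, 241, 64.5 and 300 CPM in the cortical surface cells with both genes and 253 and 203 at the bone, against 20.8, 23.1, 0 and 52.9, and 11.9 and 2.57, in cells with neither gene and few smooth muscle genes. Its thinned detection was 29.0% against 4.14% of cells. Angpt2, a secreted ligand of the endothelial receptor TIE2, had 512, 368, 581 and 400 CPM, and 749 and 361 at the bone, against 152, 121, 146 and 106, and 215 and 56.5. Adra2a, an adrenergic receptor, had 198, 152, 419 and 200, and 127 and 134, against 76.1, 40.5, 48.6 and 68.8, and 35.8 and 7.71. Every library had the higher value in the cells with both genes for each of these 3 genes.

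Col14a1, a collagen of the fibril surface, was at 167, 60.3, 64.5 and 62.6 CPM in the cortical surface cells with both genes and at 1348 and 653 at the bone. In cells with neither gene and few smooth muscle genes it was at 0 in all 4 cortical surface libraries, and at 477 and 113 at the bone. Chrdl1, which encodes a secreted BMP antagonist, likewise had 85.3, 54.6, 32.3 and 37.5 CPM at the cortical surface against 0 in all 4 libraries, but 261 and 141 against 179 and 139 at the bone. Sdc1 stood at 81.5, 112, 64.5 and 163, and 319 and 266, against 13.8, 5.78, 16.2 and 37.1, and 23.8 and 48.8. Set beside the 171 cells alone, 46 of 6596 genes (0.697%) were higher without overlap and 29 (0.44%) lower, and beside the cells with smooth muscle genes (5 libraries) 375 of 8200 (4.57%) were higher and 160 (1.95%) lower.

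Pericyte genes did not run in 1 direction. The list of 23 summed to 9069, 9722, 7515 and 8439 CPM in the cortical surface cells with both genes, below the 17418, 17945, 9860 and 11462 of those with neither gene and few smooth muscle genes, but at the bone to 4900 and 5542, above 3993 and 2766. Vtn was detected in 96.1% of the cells with both genes after thinning against 83.4%, and Tbx18 in 24.5% against 16.6%. The genes that follow were picked for lower values in the cells with both genes. Atp13a5, a P-type ATPase gene used as a marker of brain pericytes, had 0 UMIs in the cells with both genes in all 6 libraries, and 470, 497, 324 and 191 CPM in cortical surface cells with neither gene and few smooth muscle genes. At the bone those cells had 35.8 and 2.57. After thinning, Atp13a5 was found in 0% of the cells with both genes and in 23.1% of the cells with neither gene and few smooth muscle genes. Slc6a20a, a transporter gene, was at 31, 46.0, 0 and 6.26 at the cortical surface in the former against 588, 705, 195 and 307 in the latter. Cspg4, which encodes the pericyte proteoglycan NG2, was at 104.7, 118, 64.5 and 62.6, and 7.68 and 4.79, against 374, 335, 227 and 217, and 59.6 and 46.3. Id1, a target of BMP signalling, was at 7.76, 74.7, 0 and 12.5, and 26.9 and 43.1, against 187, 231, 32.4 and 79.4, and 215 and 275. Within each library the cells with both genes thus had the lower value for all 4 genes. The pericyte ion channel gene Kcnj8, a gene of the rule, was lower in the cells with both genes in each library but bone-associated library 2, at 601, 862, 516 and 870, and 269 and 737, against 1252, 1196, 859 and 1276, and 513 and 442.

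**Figure D4:**
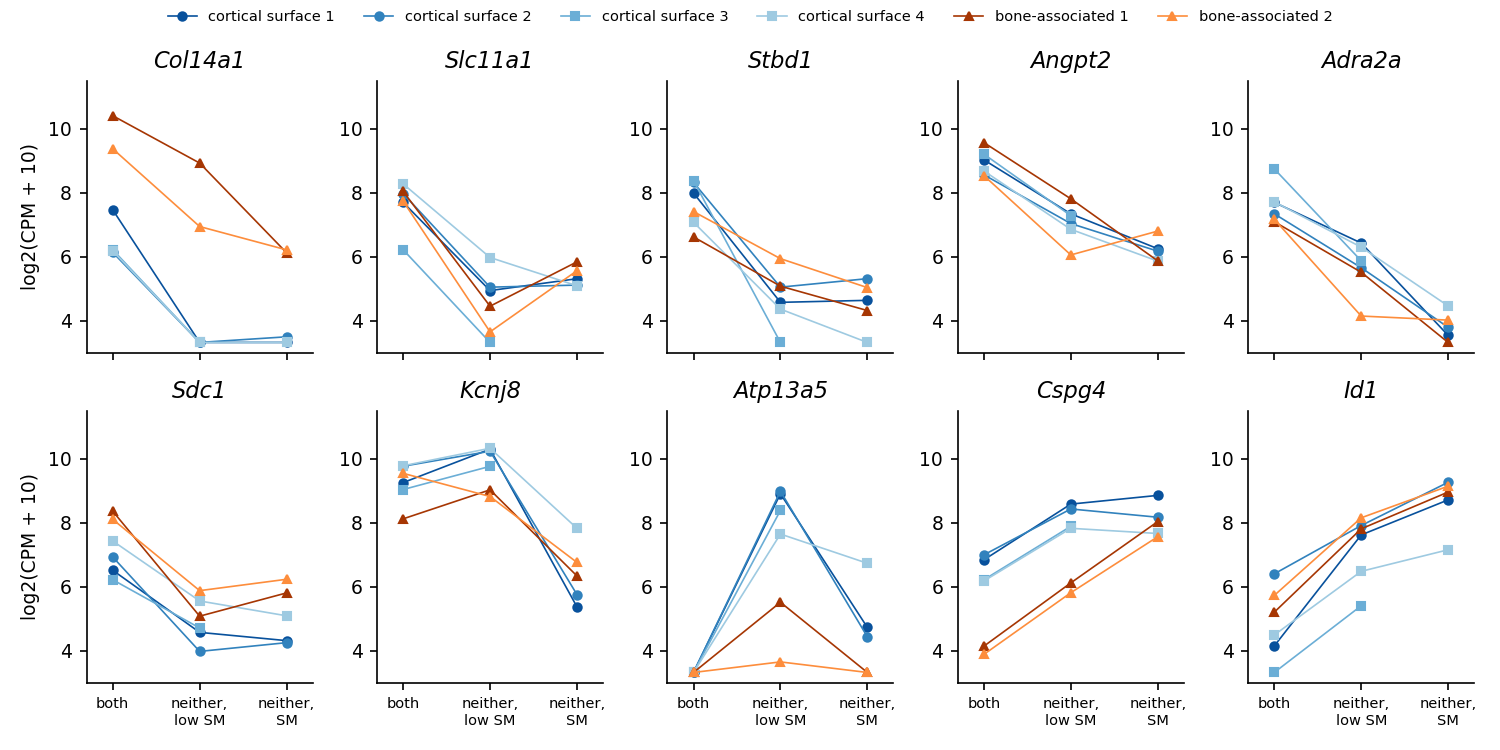
Level of 10 genes (log2 of CPM plus 10) in marker-positive cells with Ccl19 and Colec11 (both), with neither gene and fewer than 2 smooth muscle genes (low SM), and with neither gene and at least 2 smooth muscle genes (SM), with 1 line for each library. The SM group of cortical surface library 3, a single cell, is left out. The lines fall from left to right for Col14a1, Slc11a1, Stbd1, Angpt2, Adra2a and Sdc1 between the first and the second group, and rise for Atp13a5, Cspg4 and Id1.

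The comparison with pericytes lacking all 4 marker genes asks what else sets the marker-positive cells apart. Such pericytes were rare. When pericytes were required to have fewer than 2 smooth muscle genes, there were 34, of which 12 lay in cortical surface library 2, 11 in cortical surface library 4 and no more than 4 in any other library. Marker-positive cells made up 94.1% ± 2.02 (SD, n = 4) of both classes at the cortical surface and 98.6% ± 0.752 (SD, n = 2) at the bone. The marker genes of the rule decide this share, so the difference of 4.49 percentage points is a description. With every cell thinned to 1500 UMIs the shares were 68.5% and 73.5%, and the order of the preparations turned when pericytes were allowed smooth muscle genes, to 89.6% at the cortical surface and 86.2% at the bone.

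In the 2 cortical surface libraries with at least 10 cells of both classes, edgeR's quasi-likelihood test with Benjamini-Hochberg adjustment called 123 of 7116 genes (1.73%), 113 higher (1.59%) and 10 lower (0.141%) in marker-positive cells. A call required an adjusted p under 0.05 and a log2 fold change of at least 1.3. The pericytes had 79282 UMIs in all, and of the 113 genes called higher 28 had no UMI in them and 59 at most 3. Ntn4, a laminin-related netrin, had 542 and 207 CPM in marker-positive cells of cortical surface libraries 2 and 4 and 0 UMIs in pericytes, and was at least 11.8-fold higher (3 counts over the pericytes as floor). Gsn, the actin-severing gelsolin, was at least 8.31-fold higher with 383 and 144 CPM, and Ctgf, a matricellular growth factor gene, at least 7.56-fold higher with 361 and 100. The other genes named by size had 0 UMIs in pericytes too: Sorbs2, Palld, Nexn and Pdlim3, which encode proteins of the contractile apparatus, together with Cd9, Sncg, Lmcd1, Map3k7cl, Trp53i11, Atp1b1, Dcn and Rcan2. Their lower bounds ran from 3.22-fold for Dcn to 10.4-fold for Sorbs2. Cox4i2, a subunit of cytochrome oxidase expressed in pericytes, was lower in marker-positive cells, at 313 and 363 against 1187 and 857 CPM (log2 fold change -1.42, SE 0.28, adjusted p = 6.5e-05).

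The lists held only some of these calls. Of 14 stress genes, 11 were called higher, and of 12 contractile genes tested, 7 were (Tagln, Tpm2, Tpm1 and Des the most abundant). The pericytes had been held to fewer than 2 smooth muscle genes and the marker-positive cells had not, so the contractile count is partly set by that definition. Of 22 pericyte genes, 2 were higher (Mcam and Foxs1) and 3 lower (Cox4i2, Art3 and Slc6a20a), and of 22 matrix genes 5 were higher (Dcn, Ogn, Eln, Col8a1 and Col18a1). Of lists of other cell types, the 1 leptomeningeal and the 1 immune gene tested were called higher. Their log2 fold changes were 4.42 and 8.89, the latter 1.49 at its bound. So were 1 of 2 dural and 1 of 5 fibroblast genes, while 0 of 3 endothelial genes were called and 1 of 4 erythroid genes was lower. The part of other cell types was not tested here. The median log2 fold change over all genes tested was 0.31, and 0.11 with the genes at 0 in pericytes set to their bound. When the library was not a block, edgeR called 0 genes with 495 at an unadjusted p under 0.05, and DESeq2 with the block called 7. In both settings all 16 genes named by size lost their call. The fit had 1 residual degree of freedom and 23 pericytes.

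When the limit on smooth muscle genes was lifted, there were 122 mural cells without any marker gene, and 5 libraries could be fitted. Most of these cells carried smooth muscle genes: 72.1% had at least 2 of the 5 smooth muscle genes, with 69.2%, 66.7% and 15.4% in cortical surface libraries 1, 2 and 4 and 83.3% and 95.6% in bone-associated libraries 1 and 2. They are called marker-negative mural cells here. In the cortical surface libraries 132 of 8065 genes (1.64%) were then called, 100 higher (1.24%) and 32 lower (0.397%), and 0 of 13 contractile and 0 of 14 stress genes were among them. Only 9 of these calls matched, in gene and direction, the 123 calls made with the limit. Sorbs2, Palld, Nexn, Pdlim3, Cd9, Sncg, Map3k7cl, Trp53i11, Atp1b1 and Rcan2 changed sign, and so did Cox4i2. Slc11a1 and Angpt2, which led the cells with Ccl19 and Colec11, were called higher here. The marker-positive cells of this comparison include those cells, and the genes were picked from their values. These calls are therefore no independent check of the division. Slc11a1 had 72.1, 78.5 and 126 TMM-scaled CPM in marker-positive cells of cortical surface libraries 1, 2 and 4, against 7.6, 6.54 and 0 in marker-negative mural cells (log2 fold change 3.70, SE 0.62, adjusted p = 2.5e-05 in edgeR's test). Angpt2 had 187, 152 and 227 against 45.6, 36.0 and 60.6 (log2 fold change 2.03, SE 0.34). Cxcl1, a neutrophil-attracting chemokine, and Aldh1a1, which makes retinoic acid, had 57.4, 133 and 16.3, and 51.5, 43.7 and 72.8, against 0 in all 3 libraries.

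The bone-associated libraries could be fitted only in this wider comparison, in which 423 genes (5.24%) were called, 318 higher (3.94%) and 105 lower (1.3%). Ccl11, the eosinophil chemokine eotaxin, had 247 and 510 TMM-scaled CPM in bone-associated marker-positive cells and 0 in marker-negative mural cells of both libraries, most of which had smooth muscle genes. Igf1, a growth factor, had 86.2 and 292 against 0 and 0. Of 33 matrix genes tested, 21 were called higher, and 7 of 7 fibroblast genes were, while 39 of the 100 and 120 of the 221 marker-positive cells of bone-associated libraries 1 and 2 carried at least 3 fibroblast genes of the class definition. Angpt2 (log2 fold change 1.92, SE 0.34) and Rgs16 (4.78, SE 0.46), a regulator of G protein signalling, were higher at the bone as they were at the cortical surface (2.03 and 4.51). The difference between preparations was called for 39 genes (0.484%), 14 of them (0.174%) more positive at the cortical surface and 25 (0.31%) at the bone. Lmcd1, a LIM domain gene, had a log2 fold change of 1.25 (SE 0.32) at the cortical surface, under the limit of 1.3, and was lower than in the marker-negative cells at the bone (-1.37, SE 0.29), and edgeR's adjusted p of this difference was 3.5e-05.

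The comparison of the preparations asks how these cells differ between the brain surface and the skull side. Of 8544 genes, 621 (7.27%) were called by edgeR's quasi-likelihood test over 4 and 2 libraries, of which 163 (1.91%) were higher at the cortical surface and 458 (5.36%) at the bone. The total fell when bone-associated library 2 was left out, as the section on processing gives. Tissue and library preparation cannot be told apart, and the mixture of contractile and fibroblast-like cells differed as described above. The median log2 difference over all genes was 0.0053. The 4 erythroid genes tested had a median of 10.49 towards the cortical surface, carried by libraries 3 and 4, and edgeR called 0 of them, with all 4 at an unadjusted p under 0.05.

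Among called genes whose libraries did not overlap, the largest changes towards the bone were in Rspo3, 1500015O10Rik, Sfrp4, Shisa3, Cxcl10, Fmo2, H19 and Fst. Cxcl10, an interferon-induced chemokine, had 0, 0.611, 0 and 3.04 CPM in the cortical surface libraries and 425 and 535 in the bone-associated ones, a pooled 619-fold difference (95% counting interval 212 to 3006) with a log2 difference of -9.10 (SE 0.49, adjusted p = 2.3e-05). In cells with a Ptprc UMI Cxcl10 had 27.9, 32.7, 15.8 and 11.2 at the cortical surface and 100 and 99.8 at the bone, so the bone-associated mural level was above that of immune cells of the same libraries. Fst, a secreted inhibitor of activins, had 0, 0.611, 0 and 0 against 170 and 206, with 6.30 and 2.92 in bone-associated immune cells and 18 and 11.8 in bone-associated fibroblasts. Rspo3, an enhancer of Wnt signalling, was at 0 in all cortical surface libraries and at 86.7 and 72.1 at the bone, at least 96.1-fold higher there (3 counts over the 4 libraries as floor).

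Sfrp4, a Wnt antagonist gene, was at least 99.1-fold higher at the bone (0 against 52.3 and 93.9 CPM), and Fmo2, a monooxygenase gene, at least 66.2-fold (0 against 53.9 and 52.7). 1500015O10Rik (144 and 409 CPM at the bone), H19 and Shisa3 led this direction too, and for these 3 genes the fibroblasts of both bone-associated libraries had the higher level. H19 had 94.5 and 280 CPM in the mural cells against 730 and 1374 in those fibroblasts, and Shisa3 had 16.4 and 112 against 213 and 454. The part of fibroblast RNA in these values was not tested.

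Among called genes whose libraries did not overlap, the largest changes towards the cortical surface were in C1qb and C1qa, followed by Atp13a5 and Slc6a20a, which are on the pericyte list, and Itga4, Lef1, Slc30a10 and St8sia4, which are not. Slc6a20a had 115, 110, 107 and 144 CPM in the cortical surface libraries and 3.12 and 2.88 in the bone-associated ones (log2 difference 5.22, SE 0.33, adjusted p = 5.7e-05), and Atp13a5 had 64.7, 58.6, 102 and 82.1 against 2.34 and 0.412 (5.86, SE 0.55, adjusted p = 3.0e-04). Itga4, an integrin subunit that binds VCAM-1 and fibronectin, had 116, 47.6, 175 and 103 against 0.781 and 3.29. Slc30a10, a manganese transporter gene, had 22.6, 14.7, 33.9 and 27.4 against 1.56 and 0.412. Lef1, a transcription factor of Wnt signalling, had 16.2, 13.4, 24.2 and 47.1 against 0.781 and 0.824, and St8sia4, a polysialyltransferase gene, had 32.4, 25.0, 48.5 and 65.4 against 3.12 and 0.824.

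C1qa and C1qb, which encode chains of complement C1q and are abundant in macrophages and microglia, had log2 differences of 6.62 and 7.04. C1qa had 19.4, 119, 121 and 114 CPM against 0 and 1.24. In immune cells of the same libraries C1qa had 4350, 5088, 2719 and 2638 against 197 and 634, so it moved in the same direction there. The 12 immune genes (11 with a UMI, C1qa the most abundant, Cd3e at 0) summed to 77.6, 412, 582 and 348 CPM in the marker-positive cells at the cortical surface and to 25.0 and 46.5 at the bone. The part of free macrophage RNA in these values was not tested.

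By list, 9 of 12 chemokine and cytokine genes tested were higher at the bone and 0 at the cortical surface (median log2 difference -3.08). The 4 most abundant were Cxcl12, Cxcl1, Cxcl10 and Ccl11. Cxcl12, the ligand of CXCR4, had 63.9, 118, 87.3 and 132 CPM at the cortical surface against 841 and 1027 at the bone. Cxcl1 had 63.1, 137, 4.85 and 16.7 against 512 and 396, and Ccl11 had 13.7, 34.2, 24.2 and 38.0 against 244 and 498. Il6, the gene of interleukin-6, had 0.809, 11.6, 0 and 0 against 380 and 395. Kitl, Csf1, Ccl7 and Il33 were also called. Every one of the 9 was separated between the preparations in the same direction, opposite to that of the marker genes Ccl19 and Il34.

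Of 37 matrix genes 19 were higher at the bone and 1, Lamc3, a laminin chain gene, at the cortical surface (median -1.40). Dcn (38.0, 119, 48.5 and 129 against 1043 and 2201), Col3a1 (476, 421, 558 and 430 against 1342 and 1444) and Col1a1 (9.71, 38.5, 9.70 and 1.52 against 744 and 1238 CPM) were among the most abundant of them. Of 10 fibroblast genes 8 were higher at the bone (median -4.94), and of 7 genes typical of dural cells 5 were (Mgp, H19, Clec11a, Shisa3 and Smoc2). Cells with a UMI of Slc22a6 were barred by the rule. Fibroblasts had that gene at 611 CPM or more in every cortical surface library but at 0 and 5.30 at the bone, so the rule could take out fibroblast-like cells of the cortical surface and hardly any of the bone, and the matrix, fibroblast and dural counts may be partly set by it. Among 22 pericyte genes, 8 were higher at the cortical surface and 0 at the bone (median 0.83): Vtn, which encodes vitronectin, had 2603, 2945, 4364 and 4397 CPM against 917 and 1016, and Slc19a1, a folate transporter gene, had 170, 230, 179 and 211 against 18 and 30.5. Of 18 contractile genes, 0 were higher at the cortical surface and 2, Actg2 and Casq2, at the bone. Stress genes gave 0 of 14 in either direction over all marker-positive cells.

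Transcription factors split. Of 34 tested, 6 were higher at the cortical surface and 9 at the bone. Tbx18, a T-box factor of mural cells, had 216, 152, 194 and 181 CPM at the cortical surface against 59.4 and 51.9, Zic4 had 97.9, 95.2, 126 and 116 against 23.4 and 30.9, and Hey2, a Notch target, had 206, 166, 170 and 182 against 69.5 and 47.4. Higher at the bone were Runx1 (27.5, 25.6, 14.5 and 9.12 against 115 and 103), Ebf2 (4.85, 4.27, 0 and 0 against 152 and 74.5), Meox2 (6.47, 3.05, 0 and 12.2 against 59.4 and 63.8) and Prrx2, the paralogue of Prrx1 (0, 1.83, 0 and 0 against 14.8 and 85.6). Of 9 Notch pathway genes Notch1 and Hey2 were higher at the cortical surface and Hey1 at the bone.

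Complement and interferon genes went both ways. Of 10 complement genes tested, Vtn was higher at the cortical surface and C1ra, C4b and C2 at the bone. C4b had 4.85, 7.33, 4.85 and 4.56 CPM against 101 and 58.1. Masp1, a protease that acts with collectins, had only 7 UMIs over all libraries. Of 17 interferon and MHC class I genes, Ifitm1 was higher at the cortical surface (1343, 1256, 2347 and 2629 against 172 and 233), and B2m, Irf1 and H2-K1 at the bone. B2m had 289, 255, 272 and 274 against 808 and 701. Of 9 genes of lymphoid organ stroma, Cxcl12, Icam1 and Ch25h were higher at the bone.

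Because the mixture of cells differed between the preparations, the comparison was repeated after the data had been seen in 3 narrower sets of cells. Without cells that had at least 2 smooth muscle genes, 1138 genes (13.2%, with 4.4% higher at the cortical surface and 8.85% at the bone) were called. Without these and cells with at least 3 fibroblast genes 280 were (3.92%, with 0.853% and 3.06%), and in the cells with Ccl19 and Colec11 694 were (7.78%, with 1.75% and 6.03%). The second set had at least 10 cells in bone-associated library 2 but not in library 1, so the lone bone-associated library was assumed to vary like the cortical surface ones, and the third left out cortical surface library 3. Of the 621 genes, 122 (19.6%) were called in the same direction in all 4 compositions, 29 higher at the cortical surface and 93 higher at the bone. All 3 narrower sets were drawn from the same marker-positive cells, so this agreement is partly built in. Of the 14 stress genes, 4, 5 and 4 were called higher at the bone in these sets, in the order given, and 0 at the cortical surface. The contractile list turned with the composition. Without smooth muscle cells 6 of 13 contractile genes were higher at the cortical surface and 0 at the bone (median log2 difference 1.14). Of these 13 genes, 3 had decided which cells were left out. As 2 of the 6 calls were theirs, this count is partly set by the selection. Without fibroblast and smooth muscle cells 0 of 14 were called, 3 of which had decided the cells. In the cells with Ccl19 and Colec11 0 were higher at the cortical surface and 7 of 16 at the bone (median -1.08). Without fibroblast and smooth muscle cells the genes higher at the bone came to 2 of 5 fibroblast and 1 of 2 dural genes. They came to 11 of 29 matrix and 0 of 7 complement genes, with fewer genes tested in each list. Of those 5 fibroblast genes, 2 had decided which cells were left out, and 0 of these were called. All 4 erythroid genes tested were called higher at the cortical surface without smooth muscle cells (median log2 difference 10.0) and in the cells with Ccl19 and Colec11 (9.78), and 0 were without fibroblast and smooth muscle cells (8.82). With only cortical surface libraries 1 and 2, 668 genes were called (162 higher at the cortical surface and 506 at the bone), and 1037 with only libraries 3 and 4 (280 and 757). Of the 16 genes named by size in this comparison, all were called in the same direction with the former pair, and all but C1qa and C1qb, which were not tested there, with the latter. The lists were not counted by pair.

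The 122 genes held Cxcl10, Cxcl12, Cxcl1, Ccl11, Ccl7, Il6, Irf1 and B2m, and the collagen genes Col1a1, Col3a1, Col6a1, Col6a2, Col6a3 and Col14a1, all higher at the bone, together with Igfbp5, which binds insulin-like growth factors, Fst and the transcription factor genes Runx1, Ebf2 and Meox2. Also among them and higher at the bone were Egr3 (log2 difference -5.56) and Nr4a3 (-4.26), which encode immediate early transcription factors, Dnajb1 (-2.72), which encodes a heat shock co-chaperone, and the metallothionein genes Mt1 (-2.48) and Mt2 (-3.17). These 5 are on no list and were chosen after their values were seen, and 0 of the 14 listed stress genes were among the 122. In the cells with Ccl19 and Colec11, Cxcl12 had 73.7, 129, 161 and 163 CPM at the cortical surface and 2419 and 1402 at the bone, and Il6 had 3.88, 34.5, 0 and 0 against 753 and 993. Higher at the cortical surface in all compositions were Ptn, Ifitm1, Hey2, Lamc3, Slc6a20a and Itga4. Ptn, which encodes the growth factor pleiotrophin, had 1949, 1567, 3520 and 3692 CPM in all marker-positive cells against 161 and 365, and 2673, 2269, 1871 and 3391 against 296 and 476 in the cells with Ccl19 and Colec11. Atp13a5 was not among them, having 0 UMIs in those cells in every library.

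**Figure D5:**
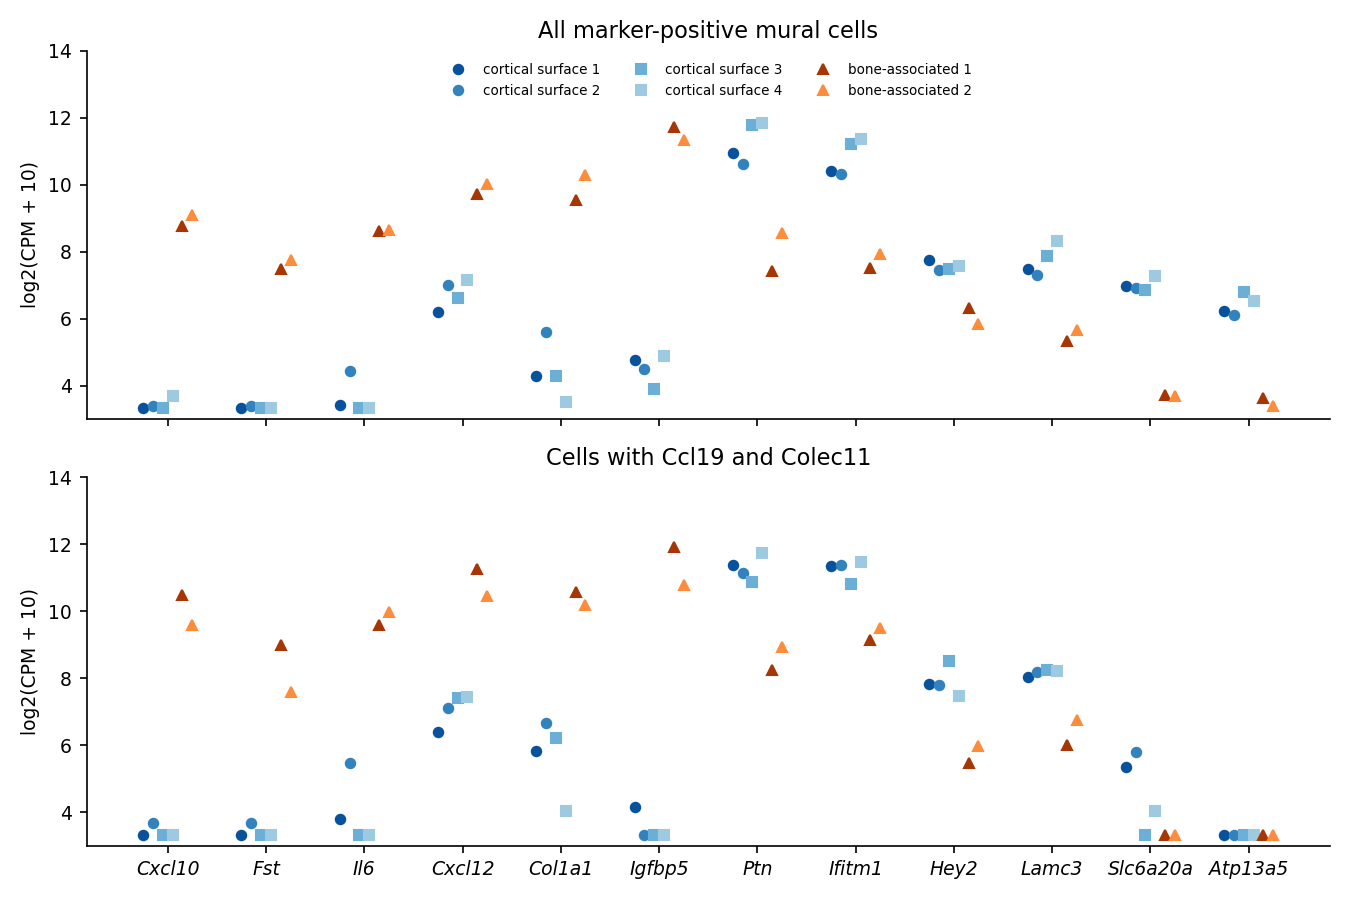
Level (log2 of CPM plus 10) of 12 genes in all marker-positive mural cells (top) and in those with Ccl19 and Colec11 (bottom), with 1 point for each of the 6 libraries. The 6 genes on the left are higher in both bone-associated libraries than in all cortical surface libraries in both panels, the next 4 are lower, Slc6a20a is at 0 in cortical surface library 3 and both bone-associated libraries of the bottom panel, and Atp13a5 is at 0 CPM in the bottom panel in every library.

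The last comparison sets the marker-positive cells beside fibroblasts, the stromal class that also held Ccl19. With the library as a block, edgeR's test called 1500 of 9120 genes (16.4%), 788 higher (8.64%) and 712 lower (7.81%) in the mural cells. Of 12 contractile genes 12 were higher, of 21 pericyte genes 13 were higher and 1 lower, and of 9 Notch pathway genes 7 were higher and 1 lower. The 5 mural genes of the rule summed to between 6489 and 12953 CPM in the marker-positive cells. They summed to between 119 and 299 in the fibroblasts, which lay outside the rule. Fibroblasts were required to have fewer than 2 mural genes and fewer than 2 of the 5 smooth muscle genes. The marker-positive cells needed at least 2 mural genes and had no limit on smooth muscle genes. These 3 counts are therefore partly set by the definitions, and how much was not tested. Notch3, the main Notch receptor of mural cells, had a log2 fold change of 6.75 (SE 0.75, adjusted p = 2.4e-04). Of 11 leptomeningeal genes 11 were lower, with Ptgds at -9.32 (SE 1.01, adjusted p = 2.1e-04). The rule took no mural cell with a UMI of the leptomeningeal gene Slc22a6, whereas fibroblasts had it at 668, 966, 712 and 611 CPM at the cortical surface and at 0 and 5.30 at the bone, so this count is partly set by the definitions. Of 14 stress genes 11 were higher, a list whose level also differed between libraries.

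Gm13861 had 0 UMIs in fibroblasts of all 6 libraries and 292, 294, 150, 263, 107 and 68.4 CPM in the mural cells, and was at least 311-fold higher. Dgkg, Tusc5 and Casq2 were also at 0 in fibroblasts, with lower bounds from 69.7-fold for Casq2 to 93.2-fold for Tusc5. Map3k7cl, Apold1 and Slc38a11, with 1 or 2 fibroblast UMIs each, completed that direction. Apold1 encodes a protein of vascular cells. Lower in the mural cells were Cxadr, Gjb2, Bmp7, Frmpd4, Mpzl2, Cdh5, Slc22a23 and Apod. Cxadr, an adhesion receptor gene, had 0 UMIs in the mural cells (at least 102-fold lower). Gjb2, a connexin gene, was lower by a pooled 184-fold (95% counting interval 120 to 297), and Bmp7 by 119-fold (50.6 to 369). Apod, a lipocalin gene, was lower by a pooled 21.5-fold (20.6 to 22.5). Its fitted log2 fold change was larger, at -6.33 (SE 1.26). Its mean over the 6 libraries was 226 CPM in the mural cells and 9242 in fibroblasts.

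Matrix and chemokine genes did not run in 1 direction. Of 35 matrix genes, 4 were higher in the mural cells (Col4a1, Col4a2, Col18a1 and Eln) and 9 lower, Col1a1 among them (log2 fold change -4.49, SE 0.79). The share of matrix genes called higher was near the 8.64% of all genes. Of 10 chemokine and cytokine genes Cxcl1, Ccl11, Il6 and Kitl were higher and Il33, Cxcl16, Cx3cl1 and Cxcl14 lower. Il6 had a log2 fold change of 5.39 (SE 0.44, adjusted p = 1.7e-04) and rested on the bone-associated libraries, where it had 380 and 395 CPM in the mural cells against 3 and 14.3 in fibroblasts. At the cortical surface the mural cells had 0.809, 11.6, 0 and 0, and fibroblasts 0 in all 4 libraries. Of 35 transcription factor genes 10 were higher, among them Ebf1 and Epas1, and 4 lower.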

How the data were processed

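The authors aligned reads to mm10 with Cell Ranger (the matrix headers give version 6.1.2, the submitters' processing notes 3) and deposited whole-number UMI counts per gene and barcode for 6 libraries. These deposited counts were not normalized. Gene coordinates come from GENCODE, in which 31011 of 31053 gene identifiers were found. No deposited file gives cell types, so classes were set by the gene rules in the text. No correction for free RNA was made, and doublet-like cells (124, or 1.41%, at 0.8% per 1000 cells) were kept in the main analysis.

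Sums of UMIs were formed for each class in each library, using libraries with 10 or more cells of both classes. Genes detected in over 10% of cells of either class were tested with edgeR 4.0.16 (quasi-likelihood, TMM, R 4.3.3), Benjamini-Hochberg adjusted over all genes tested. The library was a block where 2 classes came from the same libraries. Genes of the rule were not counted. The 5 smooth muscle genes of the class definitions were left out against pericytes and against fibroblasts. The 6 fibroblast genes of the definitions were left out against fibroblasts only. Between the preparations, also in the narrower sets of cells, genes of the class definitions were counted where tested. The limit of 1.3 on the log2 fold change follows the study. CPM values are relative to all UMIs of the class in that library. In the self-test on simulated counts with 100 genes changed at each size, the comparison with pericytes (7116 genes) recovered 25 at a log2 change of 2 and 59 at 3, and that of the preparations (8544 genes) 97 and 100.

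The cells and gene lists were chosen with earlier results of these data known. Genes named beyond the lists are the 15 largest positive and 10 largest negative changes against pericytes, and the 8 largest in each direction otherwise, among called genes whose libraries did not overlap and whose higher class had 50 or more UMIs. The genes named for the wider pericyte definition, for the division by Ccl19 and Colec11 and among the 122 shared genes were chosen after their values were seen. Binomial intervals and limits cover counting error only, at 95% and 3 counts. Alternatives were DESeq2 1.42.0, other normalization and gene filters, other cell filters and class rules, thinning to 1500 UMIs, and leaving out each library. Further software was scikit-learn 1.9.0, pandas 2.3.3, scipy 1.17.1, numpy 2.4.6 and Python 3.11.15. Imaging and other published data sets were not analysed here. Results for a few genes are not reported here.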

Additional observations from a re-analysis of the deposited data

Results flagged for a closer look

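Of 60 values checked for a library far from the other 3 of the cortical surface group, 8 stood apart. Chance flags about 1 in 20 of continuous values, a rate that does not hold for 5 of the 8, which had UMIs in only 1 of the 4 libraries. C1qa was lowest in cortical surface library 1, at 19.4 CPM of the marker-positive cells with the next value at 114. The other 7 were highest in cortical surface library 2. The 11 leptomeningeal genes summed to 3001 CPM there against at most 112 in the other 3, most of it Ptgds at 2922, and Apod had 259 against at most 29.1. In the cells with Ccl19 and Colec11 of that library Ptgds had 106 and Apod 34.5. Fst, H19 and 1500015O10Rik each had 0.611, Bmp7 1.83 and Mpzl2 1.22 CPM there and 0 in the other 3, which rests on 1 to 3 UMIs.

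For 3 called genes the preparations were ordered one way in marker-positive cells and the opposite way in fibroblasts, in every library, and this difference was not tested. Cxcl12 had 100 ± 30.8 (SD, n = 4) CPM at the cortical surface and 934 ± 131 (SD, n = 2) at the bone in the mural cells, but 875 ± 201 and 289 ± 143 in fibroblasts. C4b had 5.40 ± 1.29 and 79.4 ± 30.2 in the mural cells and 56.7 ± 22.0 and 14.8 ± 10.3 in fibroblasts, and Fbln5 had 9.14 ± 6.28 and 35.8 ± 6.44 against 152 ± 33.0 and 57.9 ± 3.38. The difference from marker-negative mural cells, most of which had smooth muscle genes, differed between the preparations for 39 genes by edgeR's interaction test.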

How the results depend on the processing

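The comparison with pericytes rests on few cells. Instead of 123 genes, 7 were called with DESeq2, 75 with edgeR's filterByExpr, 46 without members that had at least 2 smooth muscle genes, 55 after thinning, 29 without smooth muscle and fibroblast cells, and 0 without the library block. No library could be left out there, since 2 were fitted. Without the limit on smooth muscle genes in pericytes 423 genes were called at the bone and 39 for the difference of preparations, neither of which could be fitted otherwise, the share of marker-positive cells turned to be 3.44 percentage points higher at the cortical surface, and 11 of 16 named genes changed sign: Sorbs2 to -1.34, Palld to -1.17, Cd9 to -0.86, Sncg to -0.21, Map3k7cl to -0.74, Nexn to -0.84, Pdlim3 to -1.3, Trp53i11 to -0.34, Atp1b1 to -0.95, Rcan2 to -0.80 and Cox4i2 to 0.025. The cause was not tested. With the limit the share difference ran from -5.47 to -3.96 when each library was left out.

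For the preparations, 621 genes became 1288 with no gene filter, 1138 without smooth muscle cells, 353 without fibroblast cells, 280 without both, 236 after thinning, 1037 with only cortical surface libraries 3 and 4, and 303 to 668 with 1 library left out, 303 without bone-associated library 2. For fibroblasts, 1500 became 816 without smooth muscle cells and 700 after thinning, and 1298 to 1613 with 1 library left out. Over all alternatives, and only where a named gene was tested, 308 of 318 values of the preparations and 298 of 299 of the fibroblast comparison kept their direction and call. In the comparison with pericytes 166 did, 67 lost the call and 11 reversed, as given above. Thinning also cut the genes tested. Of the 16 named genes of the preparations, 4 were tested after thinning. Without fibroblast and smooth muscle cells 6 kept the call, 2 lost it and the others were not tested. The study's methods do not say whether same-numbered libraries of the 2 preparations shared animals. With the replicate numbers as a block over 2 pairs, 722 genes were called (168 higher at the cortical surface, 554 at the bone). Deviations of same-numbered libraries correlated at 0.40 and -0.000316 across 8515 genes, and those of crossed numbers at -0.40 and 0.000316. With 2 bone-associated libraries the deviations mirror each other, which fixes the crossed values. These correlations therefore cannot tell whether animals were shared.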
